A study of Homo sapiens with 18 samples.

Results

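YAP1 and WWTR1, which encodes TAZ, are transcriptional coactivators at the end of the Hippo pathway. They do not bind DNA themselves and act mostly through the TEAD transcription factors, of which TEAD1 is one. The kinases LATS1 and LATS2 phosphorylate YAP and TAZ and so keep them out of the nucleus, and cell density, cell shape and a stiff matrix are known inputs. CYR61 and CTGF, secreted matricellular proteins now also named CCN1 and CCN2, and ANKRD1, an ankyrin repeat protein, are the genes most often measured as a readout of YAP and TEAD. AXL, a receptor tyrosine kinase, and the Hippo regulators AMOTL2, AJUBA and LATS2 are also described as targets. In pancreatic ductal carcinoma YAP is known as a growth-promoting coactivator.

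The genes described here are these 10: YAP1, WWTR1, TEAD1, CYR61, CTGF, ANKRD1, AXL, AMOTL2, AJUBA and LATS2, taken by symbol from the 26485 genes listed in each of 2 deposited tables. They were chosen by their measured normalized counts in all 18 libraries, so their levels and differences are given as a description with no p-value. RNA was sequenced from PANC-1, an established human pancreatic ductal carcinoma cell line, after 72 h of treatment, with 3 libraries per group. In the siRNA table, control siRNA was compared under PKR siRNA 1 and PKR siRNA 2, which are different sequences against EIF2AK2, the gene of protein kinase R (PKR). In the C16 table, the solvent DMSO was compared with C16, an inhibitor of the PKR kinase, at 400 nM and 800 nM. The samples of each table carry their own run label, which does not say what kind of run is meant. The tables were also normalized separately, so values were compared only within a table. All groups share the same cell line, and nothing in the labels says that the 3 libraries of a group came from separate cultures, so errors measure only the spread between libraries. Each PKR siRNA is a single sequence, and C16 is a single compound. For a difference seen with only 1 of them, PKR and another effect of that sequence or compound cannot be told apart. Because these are bulk libraries, fewer cells that express a gene and less RNA per cell cannot be told apart.

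The libraries held 1512940 to 1873906 reads on genes for the siRNA experiment and 894145 to 1474308 for C16. EIF2AK2 stood at 93.5 to 103 normalized counts in the control siRNA libraries, at 9.65 to 13.6 under PKR siRNA 1 and at 7.96 to 9.40 under PKR siRNA 2, so the knockdown labels held in every library. Under DMSO and C16, EIF2AK2 ranged from 39.2 to 54.1. The ductal epithelial markers KRT8, KRT18 and KRT19 were above 562 in every group and SOX9 at 102 or above, whereas KRT7 was low, at group means of 3.78 to 18.2. The ductal markers together summed to 5535 to 5648 per library under control siRNA, 3341 to 3545 under PKR siRNA 1 and 9768 to 10412 under PKR siRNA 2, and to 7254 to 7690 under DMSO, 6127 to 6615 at 400 nM and 5249 to 5775 at 800 nM. EPCAM, an epithelial adhesion molecule, was at 83.2 to 120 normalized counts under control siRNA but at 10.6 to 14.4 under PKR siRNA 1 and 9.40 to 11.9 under PKR siRNA 2, and at 16.2 to 32.4 in the C16 table. EPCAM was thus lower in every knockdown library than in every control library, and the part of these markers in the results was not tested. PTPRC, CD3E, INS, GCG, DCN, CPA1 and CELA3A, which define leukocytes, islets, fibroblasts and acinar cells, were at 0 in all 6 groups. CD68 and COL1A1, listed as markers of macrophages and fibroblasts, were above 0 in every group, at group means of 53.3 to 243 and 25.6 to 146, and their part in the results was not tested.

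To show which of the genes carry the short DNA element that TEAD proteins bind, the promoter windows of RefSeq (assembly GRCh38.p14) were searched for the letters GGAATG on either strand. A window spans 250 bases before to 50 bases after an annotated start. Of the 10 genes, 8 had at least 1 window (12 windows in all), and CYR61 and TEAD1 had none. GGAATG was found in 7 of the 12 windows, one each of YAP1, CTGF, ANKRD1, AXL, AMOTL2, AJUBA and LATS2, and in neither window of WWTR1. Among all 35116 windows, 14.0% held it at least once. The CTGF window held 3 matches, a number reached or passed by 45 of all windows (0.128%), and the ANKRD1 window held 2, reached or passed by 1.37%. TGANTCA, the letters bound by AP-1 factors, was found on either strand in 7.71% of all windows and among these genes in ANKRD1 alone. A match describes the letters of the reference genome and does not show binding.

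The stretch before the start of CTGF and ANKRD1 is printed because these promoters held the most matches among genes whose levels differed widely between groups, and a shorter stretch is printed for the 4 other genes with a match before the start. Sequences run 5′ to 3′ on the strand of the gene, and capitals mark GGAATG or its reverse complement.
CTGF, chr6:131951373-131951622, minus strand, bases -250 to -1 from the start: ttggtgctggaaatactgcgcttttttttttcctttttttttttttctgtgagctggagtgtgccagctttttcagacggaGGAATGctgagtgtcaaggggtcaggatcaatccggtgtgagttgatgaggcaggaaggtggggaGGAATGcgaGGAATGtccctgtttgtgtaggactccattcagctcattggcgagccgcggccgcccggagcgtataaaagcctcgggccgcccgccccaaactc
ANKRD1, chr10:90921088-90921337, minus strand, bases -250 to -1: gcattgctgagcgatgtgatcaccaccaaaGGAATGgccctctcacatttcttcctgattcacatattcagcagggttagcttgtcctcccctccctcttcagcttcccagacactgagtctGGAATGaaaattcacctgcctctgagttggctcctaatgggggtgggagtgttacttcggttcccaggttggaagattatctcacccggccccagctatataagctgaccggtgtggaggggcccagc
YAP1, chr11:102110258-102110317, plus strand, bases -189 to -130: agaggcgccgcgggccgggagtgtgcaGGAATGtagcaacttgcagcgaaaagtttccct
AXL, chr19:41226516-41226575, plus strand, bases -239 to -180 of its downstream start: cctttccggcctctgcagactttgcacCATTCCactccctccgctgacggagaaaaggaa
AMOTL2, chr3:134374484-134374543, minus strand, bases -96 to -37 of its downstream start: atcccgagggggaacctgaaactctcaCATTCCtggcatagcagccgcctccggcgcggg
AJUBA, chr14:22976869-22976928, minus strand, bases -86 to -27 of its downstream start: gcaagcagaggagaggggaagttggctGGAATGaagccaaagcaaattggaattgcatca

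In the CTGF promoter the matches began at positions -169, -104 and -95 from the start, the last 2 only 9 bases apart and on the same strand. The ANKRD1 matches began at -220 and -128, with the AP-1 letters beginning at -195 between them. These ANKRD1 positions count from the RefSeq start at chr10:90921087. The gene as annotated for the counts reaches further upstream, to chr10:90921275, so the match at -128 lies inside that gene model. The matches of YAP1, AXL, AMOTL2 and AJUBA began at -162, -212, -69 and -59, and that of LATS2 at position 10 after the start. AXL, AMOTL2 and AJUBA each had another window further upstream without a match, and the libraries do not show which start was used. The genes without a printed sequence lie, on hg38 as the tables give it, at chr1:85580761-85583965 (CYR61, plus strand), chr11:12674422-12944737 (TEAD1, plus strand), chr3:149517235-149703273 (WWTR1, minus strand) and chr13:20973036-21061583 (LATS2, minus strand). No other listed gene overlapped exon bases of any of the 10.

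Levels between genes were compared per kilobase of the exon length that the table gives. Under control siRNA, CYR61 was the most abundant of the 10, at 757 ± 36.5 normalized counts per kb (SD, n = 3). WWTR1 followed at 140 ± 6.93, CTGF at 122 ± 12.5 and AXL at 110 ± 4.73 counts per kb, and neighbours in this order overlapped between libraries. YAP1 stood at 54.3 ± 1.67 counts per kb, clear of both neighbours. AJUBA, at 33.9 ± 2.24, and AMOTL2, at 31.9 ± 1.37, overlapped, and TEAD1, at 26.2 ± 1.59, and LATS2, at 10.9 ± 0.952, lay below them. ANKRD1 was last, at 0.688 ± 0.307 counts per kb. Under DMSO the same gene led and the same gene was last, with CYR61 at 152 ± 9.28 and ANKRD1 at 0.457 ± 0.496 counts per kb. YAP1 stood above CTGF there, at 57.9 ± 4.19 against 53.8 ± 11.5 counts per kb, but their libraries overlapped.

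**Figure D1:**
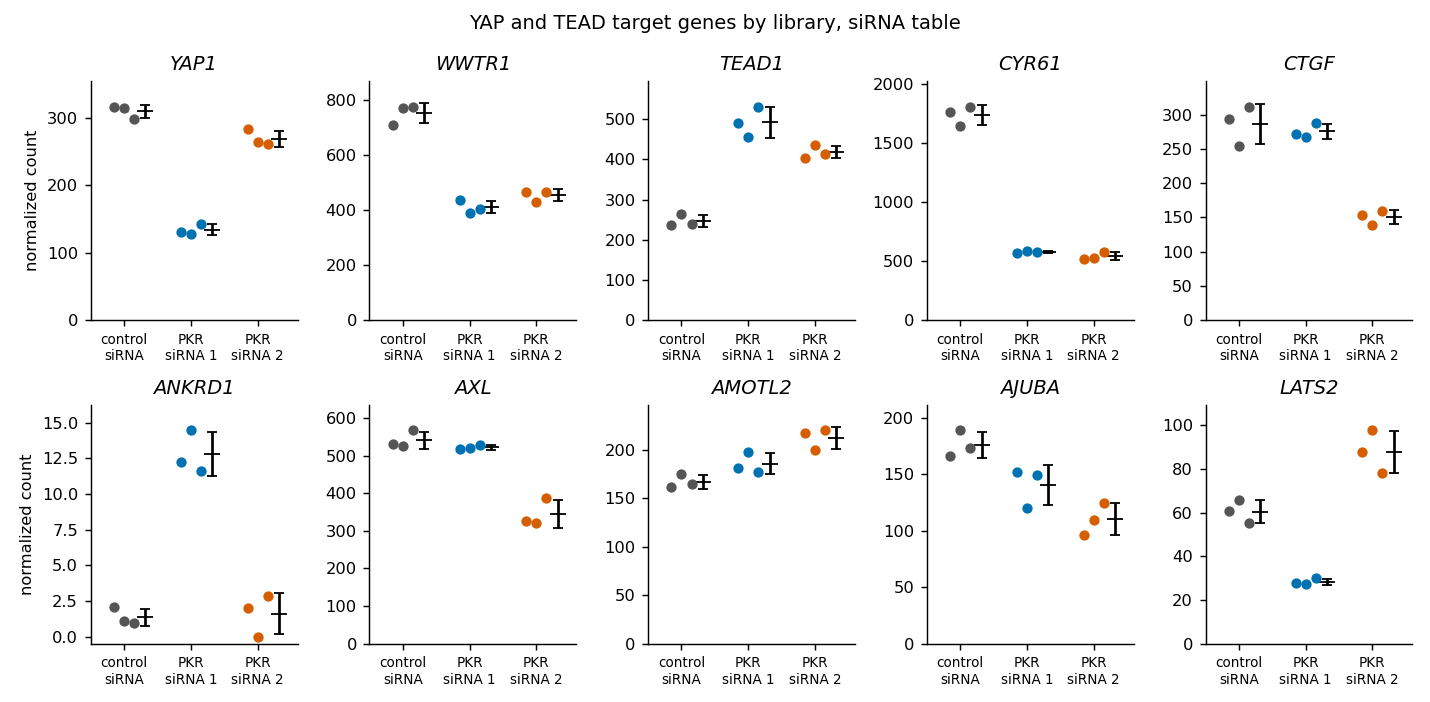
Normalized counts (vertical axes, linear, 1 panel per gene) of the 10 genes in the 9 libraries of the siRNA table; each point is 1 library, and the bar beside the points gives the mean and SD of 3 libraries. The CYR61 points of both PKR siRNA groups lie between 516 and 580, far below the control libraries at 1644 to 1807, while ANKRD1 exceeds 10 counts only under PKR siRNA 1.

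The first comparison sets each PKR siRNA against control siRNA for these transcripts. Under PKR siRNA 1, TEAD1 rose and YAP1, WWTR1, CYR61 and LATS2 fell. Under PKR siRNA 2, TEAD1 again rose, and WWTR1, CYR61, CTGF, AXL and AJUBA fell. A gene was counted as risen or fallen when it passed an adjusted p of 0.05 and a fold change of 1.5 in the limma fit, made over every gene averaging 10 normalized counts or more. ANKRD1 was under that mean in both tables, so 9 of the 10 genes were tested. For PKR siRNA 1 this gave 1 gene up and 4 down, where 8.53% of all 10593 genes tested were up and 12.6% down. For PKR siRNA 2 it gave 1 up and 5 down, where 10.8% of all genes were up and 12.8% down. Since the genes were chosen by these values, nothing is read from their counts beside those shares.

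YAP1 separated the siRNAs most clearly among the coactivators and TEAD1. The control siRNA libraries held 316, 314 and 299 normalized counts, the PKR siRNA 1 libraries 131, 127 and 143, and the PKR siRNA 2 libraries 282, 264 and 261. No library of one group overlapped those of another, and the step down was much larger under PKR siRNA 1. On the log2 scale YAP1 differed from control siRNA by -1.21 ± 0.08 (SE) under PKR siRNA 1, a 2.31-fold lower level, and by -0.20 ± 0.08 under PKR siRNA 2, with a 95% interval of -0.37 to -0.03. Between the PKR siRNAs, YAP1 was 2.01-fold higher under PKR siRNA 2 (log2 difference 1.00 ± 0.08).

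WWTR1, by contrast, fell with either sequence. Its libraries held 709, 771 and 775 normalized counts under control siRNA, 435, 390 and 404 under PKR siRNA 1, and 466, 429 and 466 under PKR siRNA 2. Every knockdown library lay below every control library, and those of the PKR siRNAs overlapped each other. The log2 differences from control siRNA were -0.87 ± 0.06 and -0.73 ± 0.06, and the difference between the PKR siRNAs was 0.15 ± 0.06, with a 95% interval of 0.02 to 0.28. Summed per kb, YAP1 and WWTR1 came to 194 ± 5.99 counts under control siRNA, 99.8 ± 4.61 under PKR siRNA 1 and 132 ± 5.20 under PKR siRNA 2. YAP1 made up 28.0% ± 1.499 of that sum under control siRNA, 23.5% ± 1.44 under PKR siRNA 1 and 35.8% ± 1.19 under PKR siRNA 2. Transcripts of the coactivator pair were thus less abundant in both knockdowns, with the balance between them moved in opposite directions.

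TEAD1 moved the other way from the coactivators. It stood at 237, 264 and 240 normalized counts under control siRNA, at 491, 455 and 532 under PKR siRNA 1 and at 405, 435 and 415 under PKR siRNA 2. Every knockdown library was above every control library, and those of PKR siRNA 1 were above those of PKR siRNA 2. The log2 differences were 0.99 ± 0.07 and 0.76 ± 0.07, or 1.99-fold and 1.69-fold higher. The other TEAD genes, paralogues that bind the same DNA element, did not follow it together. Under PKR siRNA 1, TEAD4 rose by 0.73 ± 0.14 on the log2 scale, while TEAD2 fell by 2.54 ± 0.23 (adjusted p = 5.41e-16, limma) and TEAD3 fell by 1.36 ± 0.28. These were low genes. TEAD2 averaged 43.1 normalized counts under control siRNA, 6.57 under PKR siRNA 1 and 53.9 under PKR siRNA 2, and TEAD3 27.2, 9.86 and 16.7. Under PKR siRNA 2, TEAD3 fell by 0.66 ± 0.28 (adjusted p = 0.0461, limma), and TEAD2 and TEAD4 did not pass. That call of TEAD3 was lost without control siRNA replicate 1 (-0.51) or 2 (-0.66), or without PKR siRNA 2 replicate 1 (-0.58), 2 (-0.72) or 3 (-0.67). Per kb, the 4 TEAD transcripts summed to 80.8 ± 2.77 counts under control siRNA, 103 ± 2.59 under PKR siRNA 1 and 106 ± 3.44 under PKR siRNA 2. TEAD1 supplied 32.5% ± 2.29 of that sum under control siRNA, 50.6% ± 3.00 under PKR siRNA 1 and 41.7% ± 0.782 under PKR siRNA 2. TEAD2 went from 22.9% ± 1.77 of the sum under control siRNA to 2.73% ± 0.364 under PKR siRNA 1.

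**Figure D2:**
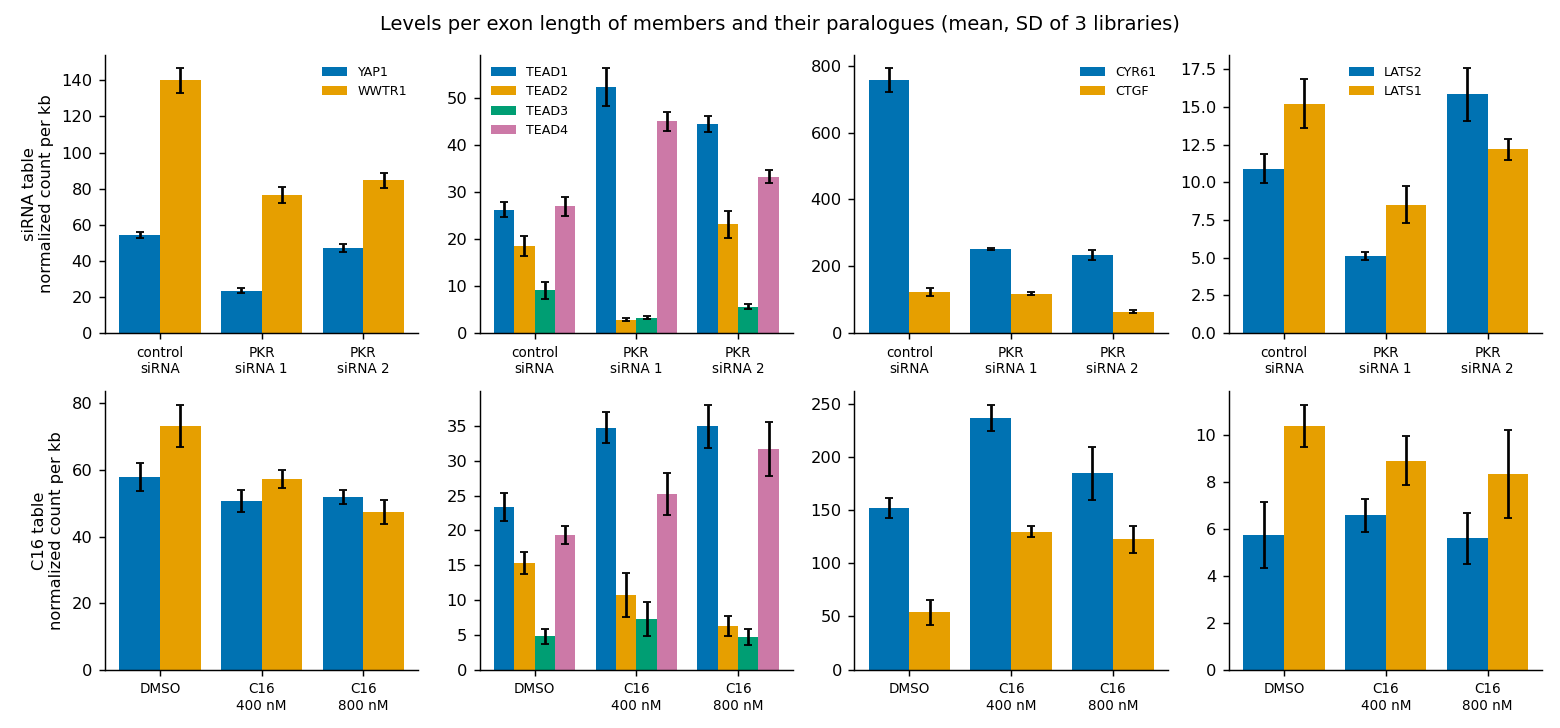
Mean levels per kilobase of exon (bars, from 0) with the SD of 3 libraries, for YAP1 with WWTR1, the 4 TEAD genes, CYR61 with CTGF, and LATS2 with LATS1, in the siRNA table (top) and the C16 table (bottom). TEAD1 and TEAD4 are higher while TEAD2 nearly vanishes under PKR siRNA 1, and CTGF gains on CYR61 in every treated group.

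The canonical secreted targets did not change as a pair. CYR61 held 1758, 1644 and 1807 normalized counts under control siRNA, 571, 580 and 580 under PKR siRNA 1 and 516, 521 and 577 under PKR siRNA 2. It was lower in every knockdown library by a wide margin, and the PKR siRNA groups overlapped. The log2 difference was -1.59 ± 0.06 under PKR siRNA 1 and -1.69 ± 0.06 under PKR siRNA 2, that is 3.00-fold and 3.22-fold lower, the largest falls of the 9 tested genes in either comparison. Between the PKR siRNAs the difference was -0.10 ± 0.06, with a 95% interval of -0.21 to 0.01.

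CTGF fell under PKR siRNA 2 and did not pass under PKR siRNA 1. Its libraries held 294, 255 and 312 normalized counts under control siRNA, 272, 268 and 288 under PKR siRNA 1, and 153, 139 and 160 under PKR siRNA 2. The first and second groups overlapped, and the third lay below both. The log2 difference from control siRNA was -0.05 ± 0.09 under PKR siRNA 1, with a 95% interval of -0.22 to 0.12, and -0.92 ± 0.09 under PKR siRNA 2. Compared directly, CTGF was 1.82-fold lower under PKR siRNA 2 than under PKR siRNA 1 (log2 difference -0.87 ± 0.09). Per length, the ratio of CTGF to CYR61 within a library was 0.152 to 0.169 under control siRNA, 0.451 to 0.485 under PKR siRNA 1 and 0.262 to 0.290 under PKR siRNA 2. These ratios did not overlap between groups.

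ANKRD1, often used as a YAP reporter, was barely present in most libraries. It stood at 2.05, 1.07 and 0.948 normalized counts under control siRNA, at 12.2, 14.5 and 11.6 under PKR siRNA 1, and at 1.99, 0 and 2.82 under PKR siRNA 2. All 3 PKR siRNA 1 libraries were above the rest, whereas the control siRNA and PKR siRNA 2 libraries overlapped. Pooled over libraries, 39 reads under PKR siRNA 1 stood against 4 under control siRNA, a depth-corrected ratio of 9.49 (95% exact interval 3.43 to 36.6). Under PKR siRNA 2 there were 5 reads and a ratio of 1.23 (0.265 to 6.21). PKR siRNA 2 against PKR siRNA 1 gave a ratio of 0.130 (0.0399 to 0.330). These intervals cover counting error only. ANKRD1 was thus highest in the group in which YAP1 was lowest.

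AXL differed under PKR siRNA 2 alone. Its libraries held 530, 524 and 567 normalized counts under control siRNA, 517, 521 and 529 under PKR siRNA 1 and 327, 321 and 387 under PKR siRNA 2. The log2 difference from control siRNA was -0.05 ± 0.07 under PKR siRNA 1 (95% interval -0.18 to 0.09) and -0.65 ± 0.07 under PKR siRNA 2. Against PKR siRNA 1, AXL was 1.52-fold lower under PKR siRNA 2 (log2 difference -0.60 ± 0.07), a margin so close to the fold threshold that it did not pass without PKR siRNA 2 replicate 1 (-0.57) or replicate 2 (-0.55). MERTK, a receptor of the same family, fell with both siRNAs, by 0.86 and 1.24 on the log2 scale.

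The feedback regulators each behaved differently. LATS2 held 60.6, 65.5 and 54.98 normalized counts under control siRNA, 27.8, 27.2 and 29.9 under PKR siRNA 1 and 87.5, 97.6 and 78.1 under PKR siRNA 2. The 3 groups did not overlap, under PKR siRNA 1 below and PKR siRNA 2 above the control libraries. The log2 difference was -1.06 ± 0.16 under PKR siRNA 1 and 0.53 ± 0.16 under PKR siRNA 2, the second under the fold threshold, although it passed without control siRNA replicate 2 (0.59) or PKR siRNA 2 replicate 3 (0.61). LATS2 was 3.02-fold higher under PKR siRNA 2 than under PKR siRNA 1 (log2 difference 1.59 ± 0.16), the largest difference between the PKR siRNAs among the 9 tested genes. LATS1, its paralogue, fell under PKR siRNA 1 by 0.83 ± 0.13 on the log2 scale, and LATS1 and LATS2 together went from 26.1 ± 1.46 counts per kb under control siRNA to 13.6 ± 1.41 under PKR siRNA 1 and 28.0 ± 1.44 under PKR siRNA 2.

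AJUBA, a LIM protein that can hold back the LATS kinases, stood at 166, 189 and 173 normalized counts under control siRNA, 152, 121 and 150 under PKR siRNA 1 and 96.5, 109 and 125 under PKR siRNA 2. Both knockdown groups lay below the control libraries and overlapped each other. AJUBA fell under PKR siRNA 2 (log2 difference -0.68 ± 0.11) and did not pass under PKR siRNA 1 (-0.33 ± 0.11). AMOTL2, a junction-associated protein that binds YAP, stood at 161, 175 and 165 normalized counts under control siRNA, 181, 198 and 178 under PKR siRNA 1 and 217, 199 and 220 under PKR siRNA 2. Its libraries were in that order by group, but the log2 differences of 0.15 ± 0.09 and 0.34 ± 0.09 did not reach the fold threshold.

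Compared directly, PKR siRNA 2 against PKR siRNA 1 gave 2 genes up (YAP1 and LATS2) and 2 down (CTGF and AXL) of the 9 tested. Of all genes, 16.4% were up and 15.3% down in that comparison. Both siRNAs thus went with lower CYR61 and WWTR1 and higher TEAD1, while YAP1 and LATS2 were lower under PKR siRNA 1 and CTGF and AXL lower under PKR siRNA 2. The difference of AJUBA between the PKR siRNAs, -0.35 ± 0.11, did not pass.

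**Figure D3:**
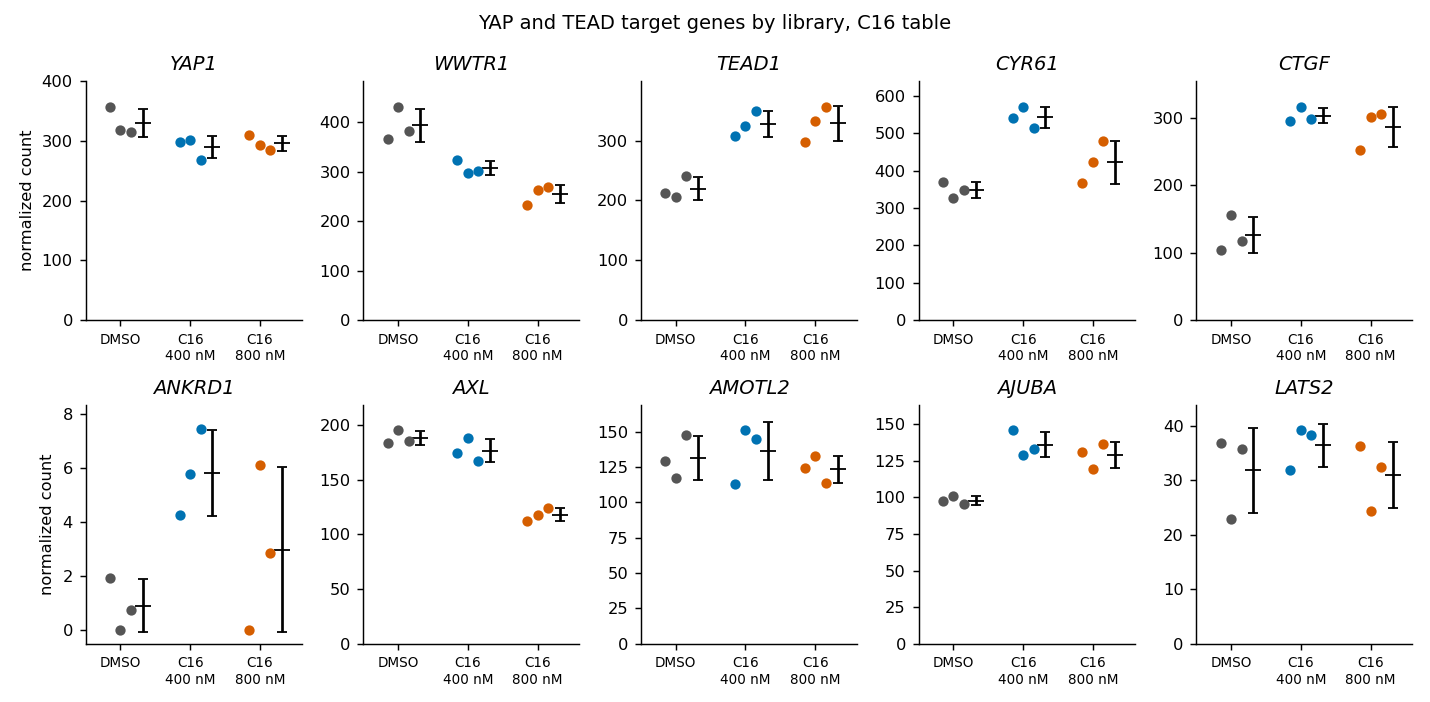
Normalized counts (vertical axes, linear, 1 panel per gene) of the 10 genes in the 9 libraries of the C16 table; each point is 1 library, and the bar beside the points gives the mean and SD of 3 libraries. CTGF lies at 252 or above in all 6 C16 libraries and at 156 or below under DMSO, and AXL is lower only at 800 nM.

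The second comparison sets C16, at each concentration, against DMSO for the same genes. At 800 nM, CTGF rose and AXL and WWTR1 fell. At 400 nM, CTGF and CYR61 rose and none of the 9 fell. This is 1 up and 2 down at 800 nM, where 11.6% of all 9963 genes tested were up and 14.1% down, and 2 up and 0 down at 400 nM, where 7.08% were up and 5.45% down. As with the siRNAs, nothing is read from these counts beside the shares.

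CTGF showed the largest difference of the 9 tested genes at either concentration. It stood at 104, 156 and 118 normalized counts under DMSO, at 296, 317 and 299 with 400 nM C16 and at 252, 302 and 306 with 800 nM. All treated libraries were above all DMSO libraries, and the concentrations overlapped. The log2 difference from DMSO was 1.28 ± 0.10 at 400 nM and 1.20 ± 0.10 at 800 nM, or 2.43-fold and 2.29-fold higher. CTGF was therefore lower under PKR siRNA 2 and higher with C16, each against its own control.

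CYR61 stood at 369, 327 and 347 normalized counts under DMSO, at 541, 572 and 516 with 400 nM and at 366, 423 and 481 with 800 nM. The 400 nM libraries were the highest of the 9, and those of 800 nM overlapped DMSO. The log2 difference was 0.64 ± 0.08 at 400 nM and 0.28 ± 0.08 at 800 nM (95% interval 0.12 to 0.44). The ratio of CTGF to CYR61 per length was 0.276 to 0.468 under DMSO, 0.535 to 0.567 at 400 nM and 0.623 to 0.699 at 800 nM, with no overlap between groups. In every treated group of both tables this ratio was above that of its own control, with CYR61 falling in the siRNA groups and CTGF rising in the C16 groups.

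ANKRD1 again rested on very few reads, with 1.94, 0 and 0.761 normalized counts under DMSO, 4.25, 5.77 and 7.45 at 400 nM and 0, 6.09 and 2.86 at 800 nM. At 400 nM, 16 reads stood against 3 under DMSO, a depth-corrected ratio of 6.59 (95% exact interval 1.89 to 35.3). At 800 nM there were 8 reads and a ratio of 3.16 (0.759 to 18.5), an interval that includes no difference. The ratio of 800 nM to 400 nM was 0.480 (0.178 to 1.19).

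YAP1 differed little under C16, with 358, 318 and 314 normalized counts under DMSO, 299, 301 and 268 at 400 nM and 310, 292 and 285 at 800 nM. All treated libraries lay below all DMSO libraries, by -0.19 ± 0.08 at 400 nM and -0.16 ± 0.08 at 800 nM on the log2 scale. The intervals of these YAP1 differences were -0.35 to -0.02 at 400 nM and -0.32 to 0.01 at 800 nM. Neither difference passed the adjusted p or the fold threshold. WWTR1 stood at 366, 431 and 383 normalized counts under DMSO, 324, 296 and 302 at 400 nM and 233, 262 and 268 at 800 nM, so the groups did not overlap and were ordered by concentration. The WWTR1 log2 difference was -0.35 ± 0.08 at 400 nM and -0.63 ± 0.08 at 800 nM. The call at 800 nM, 1.54-fold lower, was lost without DMSO replicate 2 (-0.56) or C16 800 nM replicate 1 (-0.57). YAP1 made up 44.1% ± 3.49 of the YAP1 and WWTR1 sum per kb under DMSO, 46.9% ± 1.74 at 400 nM and 52.3% ± 2.91 at 800 nM.

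TEAD1 was higher at both concentrations by an amount just under the threshold. Its libraries held 213, 206 and 241 normalized counts under DMSO, 307, 325 and 350 at 400 nM and 299, 333 and 357 at 800 nM, with all treated libraries above all DMSO libraries. The fold change was 1.488 at 400 nM and 1.495 at 800 nM, or 0.57 ± 0.09 and 0.58 ± 0.09 on the log2 scale. It passed 1.5 without DMSO replicate 3 (0.64 and 0.65), without C16 400 nM replicate 1 (0.62) and without C16 800 nM replicate 1 (0.65), and at 800 nM also when the values were rescaled by the median of ratios (0.59). Among its paralogues, TEAD4 rose at 800 nM by 0.69 ± 0.16, and TEAD2 fell at 800 nM by 1.24 ± 0.25 on the log2 scale. TEAD2 was low, at means of 35.6 normalized counts under DMSO and 14.8 at 800 nM. TEAD1 supplied 37.2% ± 3.23 of the TEAD sum per kb under DMSO, 44.9% ± 5.91 at 400 nM and 45.1% ± 4.92 at 800 nM.

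AXL stood at 184, 195 and 185 normalized counts under DMSO, at 174, 188 and 167 with 400 nM and at 112, 118 and 124 with 800 nM. The 800 nM libraries lay below all others, and the 400 nM libraries overlapped DMSO. The log2 difference was -0.67 ± 0.10 at 800 nM and -0.09 ± 0.10 at 400 nM (95% interval -0.29 to 0.11). Between the concentrations AXL differed by -0.58 ± 0.10, a 1.49-fold lower level that did not pass the fold threshold. While AXL fell at 800 nM, MERTK rose at both concentrations, by 0.82 ± 0.17 and 0.96 ± 0.17 on the log2 scale. AXL supplied 62.1% ± 0.837 of the summed AXL, TYRO3 and MERTK levels per kb under DMSO, 49.9% ± 1.48 at 400 nM and 38.5% ± 0.777 at 800 nM.

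AJUBA stood at 97.2, 100.9 and 95.2 normalized counts under DMSO, 146, 129 and 133 at 400 nM and 131, 119 and 136 at 800 nM. All C16 libraries were above DMSO, but at log2 differences of 0.47 ± 0.11 and 0.39 ± 0.11 AJUBA stayed under the fold threshold. AMOTL2 and LATS2 overlapped between all groups, at 113 to 151 and 22.9 to 39.2 normalized counts. Their log2 differences from DMSO were -0.09 ± 0.12 and -0.02 ± 0.21 at 800 nM and 0.05 ± 0.12 and 0.21 ± 0.21 at 400 nM. For LATS2, the lowest tested gene of the 9, the 95% interval at 800 nM ran from -0.45 to 0.40, so differences within that range were compatible with the values.

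The concentrations were compared directly for all 9 genes, and none passed, where 1.13% of all genes were up and 3.95% down at 800 nM against 400 nM. AXL was closest, at -0.58, and passed without C16 400 nM replicate 3 or without C16 800 nM replicate 3 (both -0.61). CYR61 and WWTR1 differed by -0.37 ± 0.08 and -0.27 ± 0.08 on the log2 scale. For YAP1, TEAD1 and CTGF the intervals of the difference were -0.13 to 0.20, -0.17 to 0.18 and -0.29 to 0.12. A difference as large as 1.5-fold lay outside each of them, but these intervals cover only the spread between libraries.

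**Figure D4:**
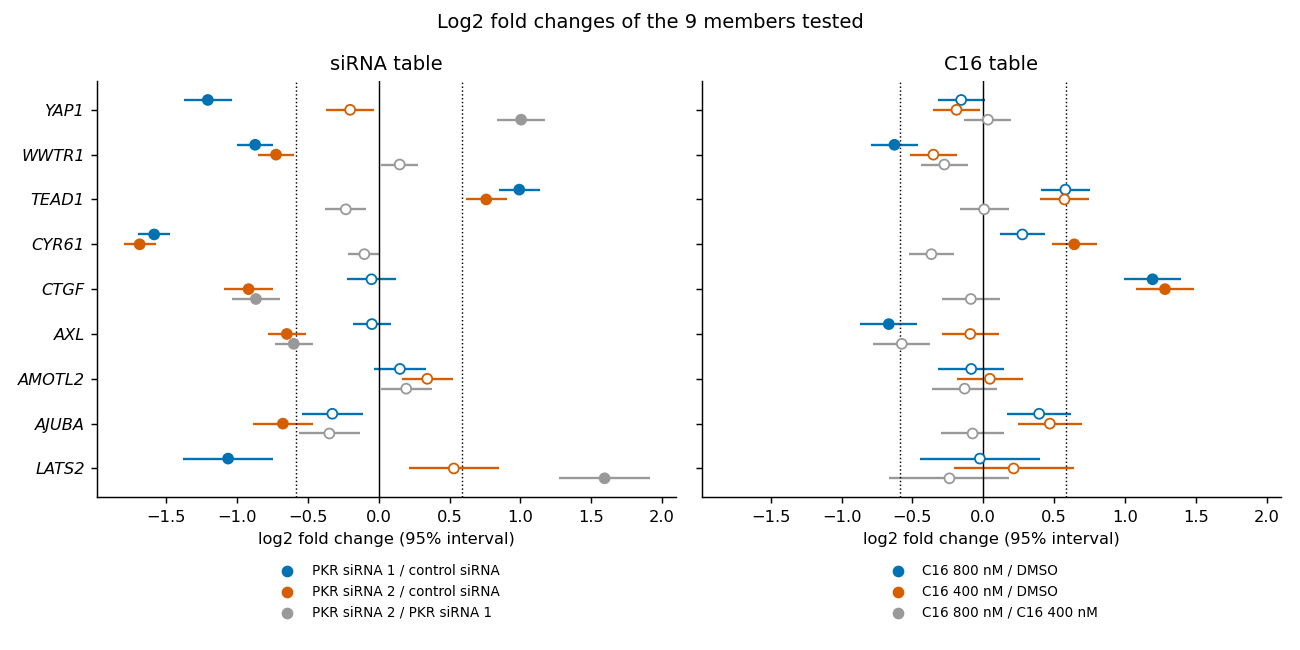
Log2 fold changes (horizontal axis) with 95% intervals of the 9 tested genes in the 3 comparisons of the siRNA table (left) and the C16 table (right); filled points passed an adjusted p of 0.05 and a fold change of 1.5 (dotted lines), open points did not. Against control siRNA, CYR61 lies far left for both PKR siRNAs and CTGF lies left of 0 for PKR siRNA 2. For C16 against DMSO, CYR61 lies right of 0 and CTGF far right.

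Set side by side, each against its own control, WWTR1 was lower and TEAD1 higher in every treated library than in any library of its control group. The same held for lower YAP1, but by more than 1.5-fold only under PKR siRNA 1. With C16 the YAP1 difference did not pass an adjusted p of 0.05 at either concentration. CYR61 was lower in both siRNA groups and higher at 400 nM C16. AMOTL2 passed in none of the 6 comparisons. The 2 PKR siRNA comparisons share their control libraries, as do the 2 C16 comparisons. The share of all genes with treated libraries entirely above or below their control libraries was not counted. Nothing is therefore read from how often these genes separated in that way.

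Other genes described as targets were taken from lists written from memory. These lists were chosen with earlier results of these data known. The adjusted p-values of their genes, here and above, are therefore descriptive and no independent evidence. Their counts stand beside the shares of all tested genes that were called, which were 8.53% up and 12.6% down for PKR siRNA 1, 10.8% and 12.8% for PKR siRNA 2, 16.4% and 15.3% for PKR siRNA 2 against PKR siRNA 1, 7.08% and 5.45% at 400 nM, 11.6% and 14.1% at 800 nM, and 1.13% and 3.95% for 800 nM against 400 nM. Of the 16 remaining genes of a 22-gene YAP and TAZ signature, the siRNA fit tested 13 and the C16 fit 12. Under PKR siRNA 1, 4 rose and none fell (median log2 difference 0.06, against -0.01 over all genes). FOXF2 rose by 1.27, FJX1 by 0.88 and GADD45A by 0.81 on the log2 scale. Under PKR siRNA 2, 3 rose and 3 fell (median -0.06, against -0.01). NT5E, the cell surface 5′-nucleotidase, fell by 2.03 (adjusted p = 4.99e-38, limma), NUAK2 fell by 1.69 and MYOF fell by 0.87, while GADD45A rose by 1.64, IGFBP3 by 1.41 and CRIM1 by 1.16. GADD45A, a growth arrest gene, is the gene the study singled out from these libraries, so its place here is no independent evidence. At 400 nM C16, NT5E, DOCK5 and FJX1 rose (0.82, 0.78 and 0.71) and none fell, and at 800 nM GADD45A and FJX1 rose (0.69 and 0.65) and ARHGEF17 fell by 0.68. With 1 library left out, 2 to 4 genes passed at 400 nM and 1 to 5 at 800 nM. FJX1 was lost at 400 nM without DMSO replicate 3 (0.57) or C16 replicate 3 (0.63), and at 800 nM without DMSO replicate 3 (0.51) or C16 replicate 2 (0.48). ARHGEF17 was lost without DMSO replicate 3 or C16 800 nM replicate 3 (-0.58 in both). The medians were 0.26 and 0.25, against 0.00 over all genes.

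A second list of 25 genes described as YAP and TEAD targets, 21 of them tested in each table, also went both ways under the siRNAs. Under PKR siRNA 1, 4 rose and 2 fell (median 0.30), among them THBS1, a matricellular protein like CYR61 and CTGF, which rose by 1.53, MYC (1.04) and FOSL1 (0.71), and F2RL1, a protease-activated receptor, which fell by 1.80. ITGB5 fell by 0.66. Under PKR siRNA 2, 3 rose and 6 fell (median -0.33). THBS1 rose by 1.47, DKK1 by 0.94 and CAV1 by 0.64, while the EGFR ligand AREG fell by 2.59, the AP-1 subunit FOSL1 fell by 1.11 and cyclin D1 (CCND1) fell by 1.05. With C16, 8 rose and 1 fell at 400 nM and 6 rose and 1 fell at 800 nM (medians 0.30 and 0.24), and 5 to 8 passed at 400 nM with 1 library left out. F2RL1 rose by 1.40 and 1.71 and CDC6 by 0.98 and 1.43, while DKK1, a secreted Wnt antagonist, fell by 0.99 and by 1.63. DKK1 was the only gene of this list that differed between the concentrations, lower at 800 nM by a log2 difference of -0.64. FOSL1 differed most clearly between the PKR siRNAs, at -1.82 ± 0.06 for PKR siRNA 2 against PKR siRNA 1 (adjusted p = 2.84e-39, limma). In that comparison 2 of the list were up, F2RL1 (1.06) and DKK1 (0.91), and 9 were down, among them AREG (-1.98) and SHCBP1 (-1.57). In the signature, 3 were up, CRIM1 (1.61), IGFBP3 (0.93) and GADD45A (0.83), and 4 down, among them NT5E (-2.82), NUAK2 (-1.25) and FJX1 (-0.93). The call of IGFBP3 was lost without PKR siRNA 1 replicate 2 (0.67).

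Among 24 genes of the Hippo kinase cassette and its upstream regulators, the siRNA fit tested 22 and the C16 fit 23. Under PKR siRNA 1, 1 rose and 4 fell (median -0.04). VGLL4, a cofactor that competes for TEAD, rose by 0.67, a call lost without control siRNA replicate 1 (0.58), and the kinase genes MAP4K4, LATS1 and STK3 fell by 0.98, 0.83 and 0.69. Under PKR siRNA 2, 7 rose and 2 fell (median 0.13), with FAT4 up by 1.00, RASSF1 by 0.95 and TAOK3 by 0.93, and the scaffold genes WWC1 and NF2 down by -1.30 and -0.74. With C16 the latter pair rose, WWC1 by 1.09 and 1.57 and NF2 by 0.98 and 0.86 at 400 and 800 nM, being the 2 genes up of the list at 400 nM (median 0.11) and 2 of 5 up at 800 nM (median 0.04). STK4, the MST1 kinase, rose by 0.71 and VGLL4 fell by 0.67 at 800 nM, the latter call being lost without C16 800 nM replicate 3 (-0.57). SAV1, the MST scaffold, was the only gene of this list past both thresholds between the concentrations (-0.77), and it was lost without 400 nM replicate 2 (-0.72) or 800 nM replicate 2 (-0.63) or 3 (-0.70). PKR siRNA 2 against PKR siRNA 1 gave 6 up, among them RASSF1 (1.00), TAOK3 (0.95) and MAP4K4 (0.82), and 3 down, WWC1 (-1.13), NF2 (-0.83) and STK4 (-0.61). STK4 was lost there without PKR siRNA 1 replicate 3 (-0.53) or PKR siRNA 2 replicate 1 (-0.57) or 3 (-0.58). On the opposite strand, other genes overlap 31.3% of the exon bases of VGLL4 and 8.96% of those of RASSF1. The strand setting of the counting is not given in the sources used here, so whether their reads were kept apart is not known.

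Of 16 paralogues of the 10 genes, 11 were tested in the siRNA table, where 1 rose and 6 fell under PKR siRNA 1 (median -0.61) and 2 rose and 2 fell under PKR siRNA 2 (median 0.19). The number called was 6 to 7 for PKR siRNA 1 and 2 to 3 for PKR siRNA 2 with 1 library left out. Besides the TEAD, LATS and MERTK genes given above, WISP2, of the same family as CYR61 and CTGF, fell by 1.25 under PKR siRNA 1 and rose by 0.93 under PKR siRNA 2, and WTIP, a relative of AJUBA, rose by 0.75 under PKR siRNA 2. WISP2 was low, at means of 15.6 normalized counts under control siRNA, 6.08 under PKR siRNA 1 and 30.5 under PKR siRNA 2. The rise of WISP2 was lost without control siRNA replicate 3 (0.79) or PKR siRNA 2 replicate 1 (0.81) or 2 (0.86). AMOTL1, a paralogue of AMOTL2, fell by 0.61 ± 0.14 under PKR siRNA 1 (adjusted p = 0.000245, limma). This was close to the fold threshold, and the call of AMOTL1 there was not followed with libraries left out. The C16 fit tested 9 of them, with 2 up and 0 down at 400 nM (median 0.37) and 3 up and 1 down at 800 nM (median 0.54). With 1 library left out these counts were 1 to 3 and 3 to 6. AMOTL1 rose by 0.60 at 400 nM, a call lost without DMSO replicate 1 (0.43) or C16 replicate 3 (0.55). LIMD1, a relative of AJUBA, rose by 0.59 at 800 nM, with 28.5% of its exon bases overlapped by a gene on the opposite strand. Its call was lost without DMSO replicate 1 (0.58) or 3 (0.54) or C16 800 nM replicate 1 (0.49). Between the PKR siRNAs 5 were up and none down (3 to 5 called with 1 library left out), with TEAD2 at 2.86, WISP2 at 2.18 and WTIP at 0.86, and between the concentrations TEAD2 alone passed, at -0.70 (adjusted p = 0.0428, limma), and it was lost without 400 nM replicate 1 (-0.49) or 3 (-0.73) or 800 nM replicate 2 (-0.52).

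**Figure D5:**
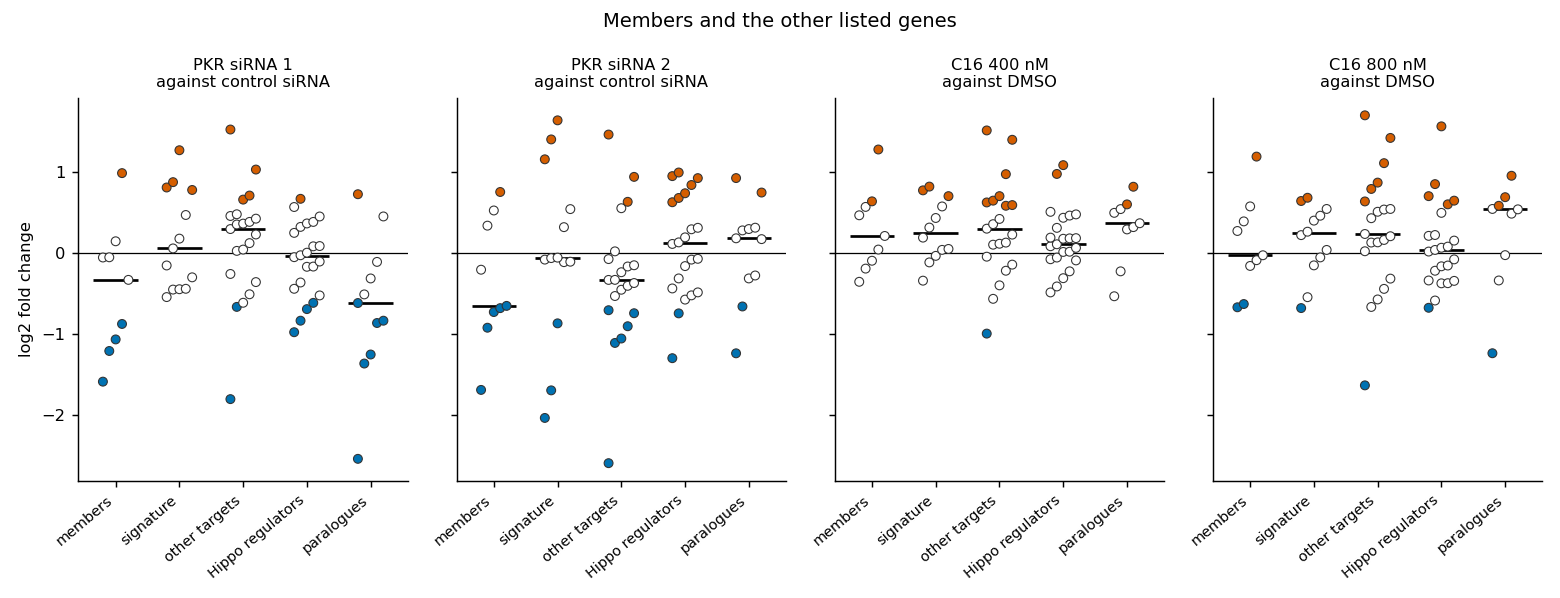
Log2 fold changes (vertical axis) of the tested genes among the 10 members and 4 other lists in 4 comparisons; each point is 1 gene, orange points rose and blue points fell past both thresholds, white points did not pass, and the black line is the median of the list. Every list spreads to both sides of 0 in the siRNA comparisons, and at 400 nM C16 the only blue point is DKK1, among the other targets.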

How the data were processed

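Total RNA of PANC-1 cells was made into poly(A)-selected, strand-specific libraries and sequenced as paired ends on a MiSeq. According to the methods and processing notes, the authors aligned reads to hg38 with TopHat, counted them per gene with featureCounts and normalized them by TMM in TCC. The deposited signal values are such normalized counts, 1 table per experiment, with a gene length (unit other). Within a tolerance of 0.1, 100% of values came out as a whole number of reads once divided by what 1 read is worth. In 2 libraries (PKR siRNA 2 replicate 1 and C16 800 nM replicate 1) this worth is so near 1 that a multiple is hard to tell from rounding. No column was left without a sample. The 3 libraries of a group differed by more than sampling noise and none were merged.

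The 10 genes and the other lists were chosen with earlier results of these data known. In each table, log2(normalized count + 1) of genes with a mean of at least 10 was fitted over 9 libraries with limma (version 3.58.1, trend) in R 4.3.3, and p-values were adjusted by Benjamini-Hochberg over all genes tested, in 6 comparisons, two-sided. Fold changes on this scale understate those of low genes. Genes were called at an adjusted p under 0.05 and a fold change over 1.5. Depth limits precision most for genes near 10 counts, and ANKRD1 was given as pooled reads with an exact 95% interval. Named were EIF2AK2, the 10 genes, their paralogues, and of each other list the up to 3 largest rises and falls per comparison. A gene that this rule would name is not reported here. The fit was also run on simulated data with fewer changed genes and a spread fixed in advance. That run checks the code, not the error rate in these data. Alternatives were other pseudocounts (0.5 and 5), filters (none, or a mean of 30), scaling, the 2 groups alone, a replicate block, each library left out, and edgeR 4.0.16 and DESeq2 1.42.0 on the whole reads. edgeR called 2264, 2559, 3409, 2654, 1319 and 457 genes in the comparisons PKR siRNA 1 and PKR siRNA 2 against control siRNA, PKR siRNA 2 against PKR siRNA 1, 800 nM and 400 nM against DMSO, and 800 nM against 400 nM. Promoter windows are those of RefSeq (250 bases before to 50 after a start). Python 3.11.15 and matplotlib 3.10.9 were used for tables and figures.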

Additional observations from a re-analysis of the deposited data

How the results depend on the processing

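Over all genes, the limma fit called 2235, 2493 and 3362 genes for PKR siRNA 1 and PKR siRNA 2 against control siRNA and for PKR siRNA 2 against PKR siRNA 1, and 2561, 1248 and 507 for 800 nM and 400 nM C16 against DMSO and 800 nM against 400 nM. With a minimum mean of 30, which tests fewer genes, the C16 counts were 1618, 769 and 313, and DESeq2 called 189 between the concentrations (the cause was not tested). Of the log2 fold changes of the 9 tested genes under the alternatives, 782 kept direction and call, 9 passed and 4 were lost as named above, and 15 changed sign, all in differences that had not passed. ANKRD1, too low to be tested, passed both thresholds with no filter for PKR siRNA 1 against control siRNA (2.57), PKR siRNA 2 against PKR siRNA 1 (-2.61) and 400 nM C16 against DMSO (1.95), which made 6, 5 and 3 of the 10 genes called instead of 5, 4 and 2. Among genes of the other lists, edgeR lost AMOTL1 at 400 nM and TEAD2 between the concentrations, and DESeq2 lost both of these, FJX1 at both concentrations, TEAD3 with PKR siRNA 2, and SAV1 and IGFBP3 in the comparisons given above. A pseudocount of 5 lost TEAD3, AMOTL1, LIMD1 and FJX1 at 800 nM, no filter lost TEAD3 and TEAD2, and a fit of only the compared groups lost TEAD2, in the same comparisons. Leaving out 1 library gave ranges of -0.13 to 0.011 for CTGF with PKR siRNA 1, at 800 nM -0.24 to 0.14 for LATS2, -0.16 to 0.0023 for AMOTL2 and -0.051 to 0.069 for EIF2AK2, at 400 nM -0.0010 to 0.33 for LATS2 and -0.034 to 0.18 for AMOTL2, and between the concentrations -0.053 to 0.075 for TEAD1, -0.021 to 0.062 for YAP1 and -0.14 to 0.0023 for CTGF. The number of the 10 genes past both thresholds between the concentrations was 0 to 1 (AXL) in those fits. Counts of the 4 other lists moved by over 1.5 times in 31 of 360 values, 17 of them with a library left out.

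The replicate numbers did not pair the samples: deviations of same-numbered libraries correlated at -0.0269 to 0.0324 in the siRNA table and -0.0491 to 0.0169 in the C16 table. With a replicate block the counts were 2237, 2489, 3359, 2554, 1239 and 506, in the order above. Another scaling moved the median of all genes by at most 0.02 on the log2 scale.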
